A study of Mus musculus with 4 samples.

Results

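Chromatin accessibility was measured at 10 genes of the insulin-like growth factor (IGF) axis in primary mouse osteoblasts. They were the ligand gene *Igf1*, the receptor genes *Igf1r* and *Ghr*, the adaptor gene *Irs1* and the binding protein genes *Igfbp2* to *Igfbp7*. A region of the count table was taken where it overlapped one of these genes in the GENCODE M21 annotation (build GRCm38) or the 25 kb on either side of it. This gave 240 of the 255864 regions, and the 12 regions that lay in the windows of both *Igfbp2* and *Igfbp5* were counted once.

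IGF-I is a secreted peptide that stimulates the growth, survival and matrix production of osteoblasts, and bone cells make it locally in addition to the supply from the liver. It binds the receptor tyrosine kinase encoded by *Igf1r*, which passes the signal through adaptors such as IRS1 to the PI3K and AKT kinases. Growth hormone, acting on its receptor GHR through JAK2 and STAT5, is a main inducer of *Igf1* transcription, while the secreted IGF binding proteins hold IGFs in the circulation and the bone matrix and so set how much reaches the receptor.

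In ATAC-seq, a transposase inserts adapters into accessible DNA, so the reads that fall in a region report how accessible it was. Osteoblasts, taken from the calvarial bone according to the methods of the study, came from C57BL/6 mice aged 3 days, which were either WT or carried Prx1-Cre together with Tet1 fl/fl, Tet2 fl/fl and Tet3 fl/fl alleles (TCKO). The floxed genes encode the TET enzymes, which oxidise 5-methylcytosine, and the labels say of WT no more than that it was wild type. Prx1-Cre is active in the mesenchyme of the limb buds and of part of the head, so cells of other lineages in a culture keep the *Tet* genes. The labels list 2 samples per genotype, but their text on library preparation speaks of 3 repeats and names an RNA library kit, so neither the number of merged libraries nor the kit is certain.

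The deposited table holds 1 merged column per genotype. There is therefore no spread between replicates, no test of the genotypes was possible, and every difference below is between 2 merged libraries without a replicate check. The columns add up to 56898657 reads in WT and 34608167 in TCKO, and TCKO counts were multiplied by the quotient of these totals, 1.64, before comparison. To each count 1 was added, and the ratio of a region is log2 of scaled TCKO over WT. For a locus it is log2 of the summed scaled TCKO count over the summed WT count. The ranges in parentheses after a ratio are 95% intervals, computed with the Wilson method from the TCKO share of reads. They cover counting error only, since reads that carry no molecular identifiers may be copies of 1 molecule. Regions were placed in introns, exons or promoters by their midpoint, a promoter being the 1 kb on either side of a transcript start.

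At the genes targeted by the alleles, the summed reads of the windows were 9329 in WT and 5045 in TCKO at *Tet1*, 3277 and 1748 at *Tet2*, and 6925 and 4045 at *Tet3*, which measures accessibility and does not check the deletion. All 10 osteoblast markers examined, among them *Runx2*, *Sp7* and *Col1a1*, had a region within 1 kb of a start, with 881 WT reads and 841 scaled TCKO reads per marker. Regions were also present at 5 of 8 macrophage or osteoclast markers (91.4 WT and 120 scaled TCKO reads per marker), at 4 of 6 endothelial markers (163 and 220 reads) and at 1 of 6 skeletal muscle markers (17.5 and 22.2 reads). Of these, *Ptprc*, *Itgam* and *Ocstamp* had none, nor had *Emcn* and *Tie1*, and of the muscle markers *Des* alone had one. Chondrocyte markers had regions at 4 of 5 genes (661 and 644 reads; none at *Matn1*) and adipocyte markers at 2 of 4 (247 and 231 reads; none at *Adipoq* and *Cidec*). In bulk samples such as these, fewer cells of a type and less accessible DNA per cell cannot be told apart. The macrophage and endothelial reads were higher in TCKO only after scaling. Unscaled, they summed to 731 in WT and 582 in TCKO for macrophage or osteoclast markers, and to 980 and 803 for endothelial ones. The part that these reads play in any result below was not tested. The markers did not all go one way: *Csf1r* had 90 WT and 181 scaled TCKO reads and *Pecam1* 185 and 363, whereas *Spi1* had 107 and 81 and *Tek* 339 and 266.

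Most regions at the IGF axis genes had similar scaled counts in both genotypes, with a shift towards lower counts in TCKO. The median ratio was -0.07 for the 240 regions and 0.06 for all regions. A ratio below 0 was found at 131 regions (54.6%), against 45.4% of all regions. The interval lay wholly below 0 at 66 regions (27.5%, all regions 18.9%) and wholly above 0 at 46 (19.2%, all regions 29.5%). The ratio of the summed counts, 65951 in WT and 37051 in TCKO, was -0.11.

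A difference of at least 2-fold in scaled counts was found at 22 regions. The study set its 2-fold cutoff on the relative enrichment of peaks, which is another measure. With it, the study reported more regions closing than opening in TCKO, the reverse of the balance of all regions given here. Counts in TCKO were lower by 2-fold or more at 6 of the 240 regions (2.50%), where 4.51% of all regions were, and higher by as much at 16 (6.67%), where 12.3% of all regions were. Both shares are thus below those of the whole table. None of the 22 regions lay within 1 kb of a transcript start, a place that was rare over the whole table too, with 290 of 11552 regions past the cutoff downward and 618 of 31428 upward. Of the 22, 15 were in introns of the member genes and 7 were intergenic. All were weak: the 6 lower ones had 33 to 194 WT reads and 9 to 50 TCKO reads, and the 16 higher ones had 12 to 103 WT reads and 28 to 136 TCKO reads. No region with 500 or more reads over both genotypes, of which there were 61, passed the cutoff. Among all regions with so many reads, 2.67% were lower by 2-fold or more and 1.46% higher, so a count of 0 is near the background. The members nearest to the cutoff on its inner side had ratios of -1.02 and 1.06, and those nearest on its outer side had -0.99 and 0.99. The interval lay wholly past the cutoff for 0 of the 6 lower regions and for 4 of the 16 higher ones.

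The balance of lower and higher regions depended on the scaling. With TMM or DESeq2 size factors 10 regions were lower and 15 higher, and after a loess fit of the ratio on the read count 12 were lower and 13 higher. Scaling to the background level recovered from the peak caller's own values (factor 1.08) gave 56 lower and 6 higher regions, and no scaling gave 78 and 4. These last 2 choices moved the median ratio of all regions by -0.60 and -0.71, so that values under them are read against that shift. The median of the member regions was below the median of all regions under each choice. It was -0.14 against -0.01 with TMM and -0.67 against -0.54 with the peak caller's background. A single factor shifts all regions nearly alike, so these choices, DESeq2 size factors and no scaling could hardly have changed the order of the medians. The loess fit and a scaling by bins of GC content could have. The medians were -0.13 for members against 0.0060 for all regions with loess, and -0.13 against 0.0 with GC bins.

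**Figure D1:**
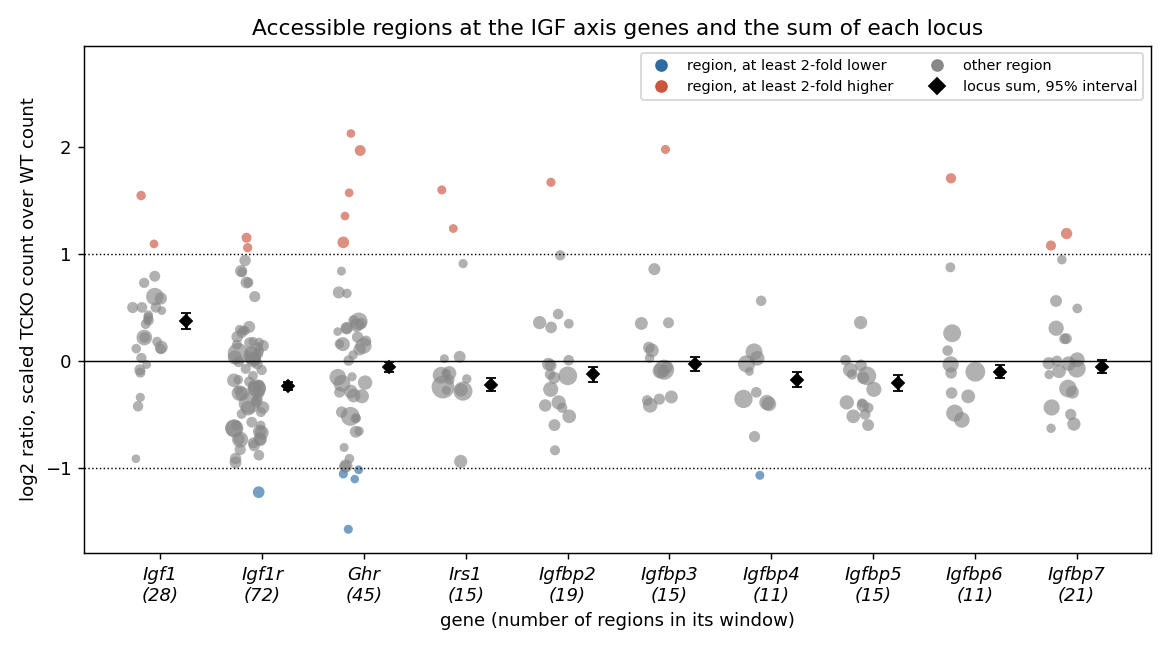
Each dot is an accessible region in the window of a gene, placed by its log2 ratio of scaled TCKO over WT count, with a size that grows with its read count; dotted lines mark a fold of 2, and diamonds with bars give the ratio of the summed counts and its 95% interval. The sum of *Igf1* is above 0 at 0.38 (below 0 without scaling or with the peak caller's background), the other 9 sums are between -0.24 and -0.03, and the regions past the dotted lines are small dots.

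Ratios varied with read count in the whole table, and the member regions were set against regions of like count. Member regions with under 100 reads over both genotypes (63 regions) had a median ratio of 0.06, where all such regions had 0.17. With 100 to 200 reads (61 regions) the medians were 0.03 and 0.16, and with 200 to 500 reads (55 regions) they were -0.09 and 0.06. With 500 or more reads (61 regions) they were -0.20 and -0.09. In each of these classes the median of the members was thus below that of the whole table. Member regions held more reads than is usual, with medians of 111 in WT and 68 in TCKO against 86 and 60 over all regions. After the loess fit the medians were -0.13 for the members and 0.0060 for all regions.

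**Figure D2:**
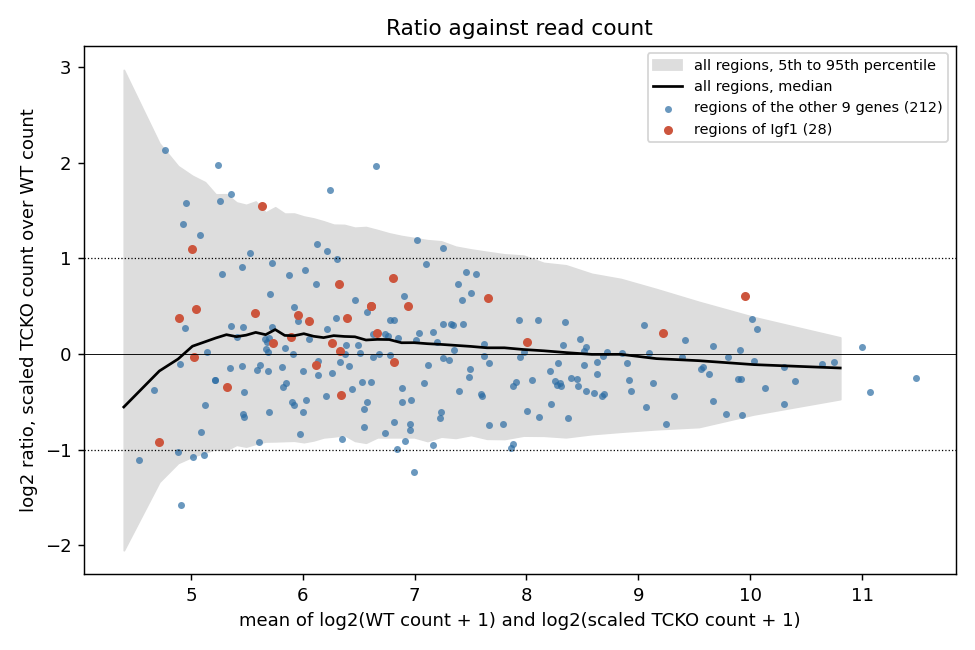
Log2 ratio of each member region against the mean of its log2 counts in both genotypes, over the median (line) and the 5th to 95th percentiles (grey) of all regions. Regions of *Igf1* (red, 28) lie mostly above the line under this scaling to the total count, with a median ratio of 0.36, and the strongest regions of the other genes (blue) mostly lie at or below it.

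Regions were next grouped by position. The 25 member regions within 1 kb of a start of any protein-coding gene had a median ratio of -0.06, where all such regions had -0.07. The other 215 had a median of -0.07, where the other regions of the table had 0.09. Member introns held 150 regions with a median of -0.06, and the 48 intergenic regions had -0.08. The 3 exonic regions had -0.33, and the 14 regions inside other genes had 0.13. At the 6 promoter regions of other genes inside the windows, such as those of *Top2a*, *Spryd3* and *Rhbdd1*, the median was -0.32. At the edges of the windows, the 20 outermost members had a median of -0.13, and the 18 nearest regions outside had 0.20.

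Summed over its window, *Igf1* differed in direction from the other members. Its sum was higher in TCKO and the sums of the other 9 were lower, where 54.5% of all 19896 protein-coding loci had a ratio below 0. The interval was wholly below 0 at 7 member loci, as at 35.7% of all loci, and wholly above 0 at 1, as at 28.0% of all loci. The locus ratios of all genes ran from -0.28 at the 5th percentile to 0.56 at the 95th, with a median of -0.02, so every member lay within that range.

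The density of reads per kb of window, which allows genes of unlike length to be compared, was highest at *Igfbp6* with 104 WT reads per kb. *Igfbp3* followed with 79.0, *Igfbp4* with 75.5, *Igfbp5* with 66.5 and *Irs1* with 63.4. *Igf1r* had 59.5, *Igfbp2* 58.5 and *Igfbp7* 56.9. The long gene *Ghr* had 30.9 and *Igf1* had 25.1, the lowest density in WT. In TCKO the scaled densities were 97.0 at *Igfbp6* and 77.4 at *Igfbp3*, while *Igf1* with 32.7 stood above *Ghr* with 29.7. Without replicates it cannot be said which neighbours in this order differ.

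*Igf1* (ENSMUSG00000020053, chr10:87858265-87937042, plus strand) encodes the IGF-I peptide. Its window held 28 regions with 3238 WT reads and 2559 TCKO reads, or 4207 after scaling. The sum was 29.9% higher in TCKO, a ratio of 0.38 (0.30 to 0.45), at the 91.3rd percentile of all loci. The direction was below 0 without scaling (-0.34) and with the peak caller's background (-0.23). Every single factor shifts all loci alike, so that *Igf1* stayed 0.40 above the median locus under each of them. Of the 28 regions, 22 had a ratio above 0 and 6 below, and the interval was wholly above 0 at 10 regions and wholly below at 0. Among all regions, 45.4% had a ratio below 0, and the interval was wholly above 0 at 29.5% and wholly below at 18.9%. After the loess fit 18 of the 28 were above 0 and their median ratio was 0.20 instead of 0.36.

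The strongest *Igf1* region lay in an intron 22 kb after the gene start (chr10:87879895-87880687). It held 803 WT reads and 742 TCKO reads, or 1220 after scaling, and its ratio of 0.60 (0.46 to 0.75) was the highest among the 61 member regions with 500 or more reads. Its summit stood 7.39-fold over the local background of the library in WT and 9.34-fold in TCKO. The region carried 26.7% of the reads of the locus, and without it, a choice made after the data were seen, the locus ratio was 0.29. At the start of the gene, chr10:87858140-87858392 held 164 WT and 150 TCKO reads with a ratio of 0.59 (0.27 to 0.91). The promoter region with most reads, chr10:87860134-87861071 near a second start and 2.3 kb into the gene, held 552 and 391 reads with a ratio of 0.22 (0.03 to 0.41). Over the 6 regions within 2 kb of a start the sum was 1016 WT and 752 TCKO reads, a ratio of 0.28 (0.15 to 0.42). Under the scaling to the total count, these sums and regions thus differed in the same direction. Weaker promoter regions with ratios of 0.03, 0.22 and 0.18 had intervals that include 0. With the peak caller's background the strongest region was at -0.0057, the region at the gene start at -0.02 and the one near the second start at -0.39.

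Both *Igf1* regions past the 2-fold cutoff were weak and were called as peaks only in TCKO. The 200 bases around the WT summit of the strongest region are shown, since that region holds the most reads of the locus. They were read from the GRCm38 plus strand, and capitals mark letters that match one of the 7 searched consensus motifs given further on.

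Igf1 strongest intronic region, chr10:87880082-87880281: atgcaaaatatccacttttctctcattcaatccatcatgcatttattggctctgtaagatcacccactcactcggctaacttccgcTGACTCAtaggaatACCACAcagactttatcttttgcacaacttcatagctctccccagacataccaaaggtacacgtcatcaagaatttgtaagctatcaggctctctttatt

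The capitals are an AP-1 match and, read on the minus strand, a Runt match. The window around the summit is not the central 200 bases of the region, which hold none of the 7 motifs, so these matches are not among the counts given further on. A match describes the letters and does not show that a factor was bound.

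**Figure D3:**
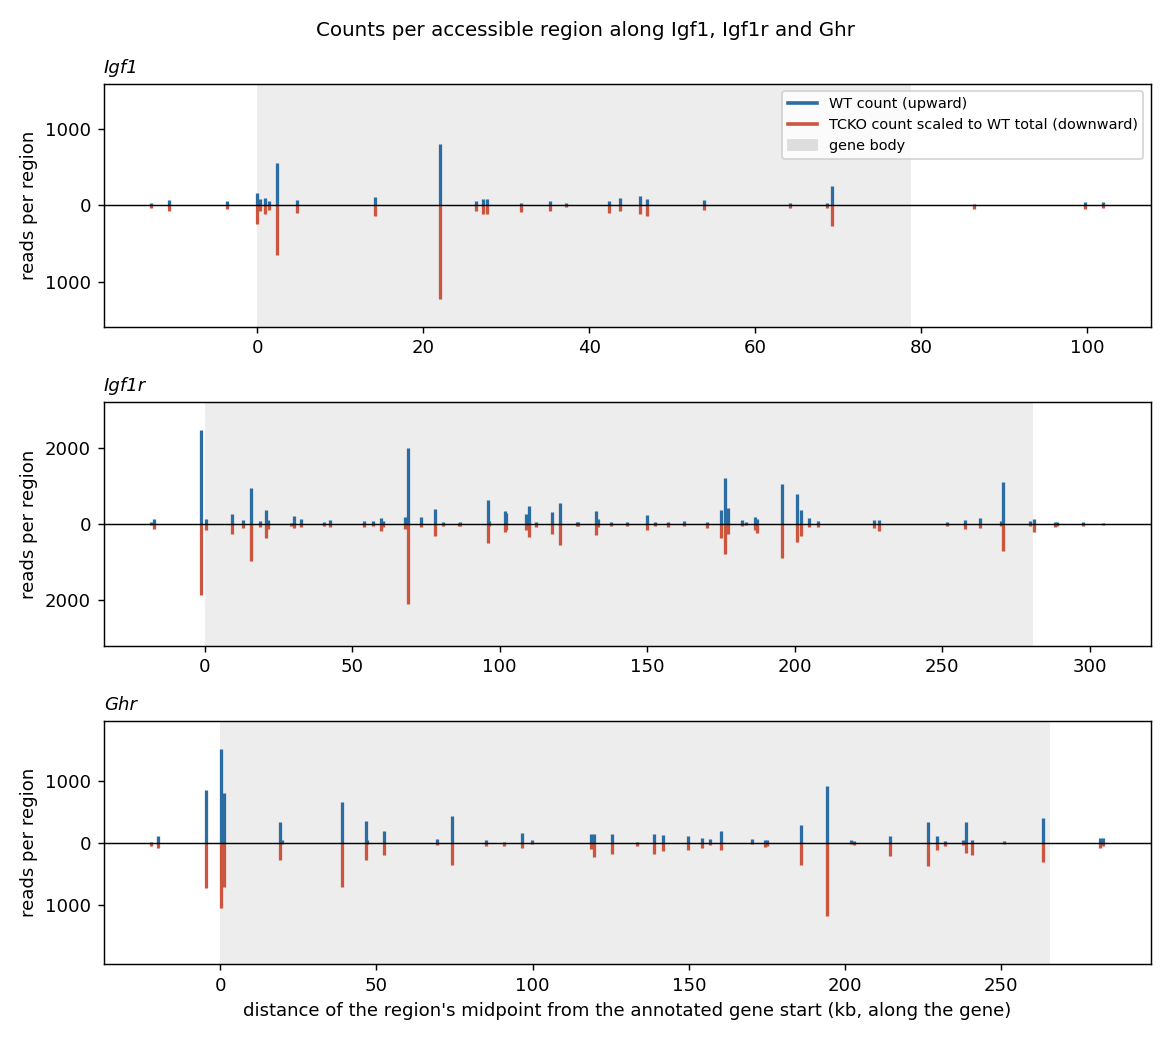
Reads per region against the distance of its midpoint from the annotated gene start, in kb along the gene, with WT counts drawn upward and TCKO counts scaled to the WT total drawn downward; grey marks the gene body. The strongest *Igf1* region, 22 kb into the gene, is longer downward (803 against 1220), whereas the regions at the start of *Igf1r* (2462 against 1873) and *Ghr* (1508 against 1052) are longer upward.

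*Igf1r* (ENSMUSG00000005533, chr7:67952827-68233668, plus strand) encodes the receptor tyrosine kinase for IGF-I. It had the most regions of the members, 72, of which 62 were intronic. They summed to 19698 WT and 10180 TCKO reads, or 16737 after scaling. The ratio of -0.24 (-0.27 to -0.20) was the lowest of the 10 loci and lay at the 7.60th percentile of all loci. Of its regions, 43 had a ratio below 0, and the interval was wholly below 0 at 26 and wholly above at 8. The shares over all regions were 45.4%, 18.9% and 29.5%. The 35 regions with at least 200 reads had a median of -0.30, and the 37 weaker ones had -0.03.

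The region with most reads at *Igf1r* (chr7:67950414-67952435) ended just before the gene start of GENCODE and spanned the start annotated by RefSeq. It held 2462 WT and 1139 TCKO reads, or 1873 after scaling, a ratio of -0.39 (-0.50 to -0.29). Measured against the local background of each library, its best summit was 4.94-fold in WT and 4.74-fold in TCKO. A small region inside the first kb, chr7:67953067-67953214, held 132 and 94 reads with a ratio of 0.23 (-0.15 to 0.61), whose interval includes 0.

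Strong intronic regions of *Igf1r* did not move alike. The strongest, chr7:68021459-68022166, held 2002 WT and 1278 TCKO reads, and its ratio of 0.07 (-0.03 to 0.17) was not distinguishable from 0. In contrast, chr7:68128994-68129531 held 1209 WT and 474 TCKO reads with a ratio of -0.63 (-0.79 to -0.48). Near the end of the gene, chr7:68223152-68223929 held 1094 and 430 reads with the same ratio of -0.63 (-0.79 to -0.47). The region chr7:68153352-68153850, with 781 and 285 reads, had the lowest ratio of any member region with 500 or more reads, -0.74 (-0.93 to -0.54). These 3 regions, picked after their values were seen, lie in introns 176 to 271 kb from the gene start.

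One *Igf1r* region was at least 2-fold lower, the intronic chr7:68026055-68026314, with 194 WT and 50 TCKO reads and a ratio of -1.23 (-1.69 to -0.79). It was called as a peak only in WT, where its summit was 2.55-fold over background. It lies 73.4 kb from the gene start, close to the strongest intronic region at 69.0 kb, whose interval includes 0. Of the 2 higher regions, the one with more reads was chr7:68122908-68123155, with 46 and 63 reads and a ratio of 1.15 (0.63 to 1.72). The promoter sequence from RefSeq (GRCm38.p6, the 250 bases before its annotated start, written along the gene with each CpG in capitals) and the lower region (GRCm38, plus strand) are shown, since the first lies in the region with most reads and the second is the lower region past the cutoff.

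Igf1r promoter, chr7:67952007-67952256, plus strand: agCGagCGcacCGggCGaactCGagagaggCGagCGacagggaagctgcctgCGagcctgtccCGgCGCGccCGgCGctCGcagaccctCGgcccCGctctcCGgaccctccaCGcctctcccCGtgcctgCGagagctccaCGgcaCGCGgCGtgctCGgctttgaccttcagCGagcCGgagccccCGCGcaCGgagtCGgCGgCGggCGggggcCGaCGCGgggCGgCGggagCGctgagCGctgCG
Igf1r intronic region lower in TCKO, chr7:68026055-68026314: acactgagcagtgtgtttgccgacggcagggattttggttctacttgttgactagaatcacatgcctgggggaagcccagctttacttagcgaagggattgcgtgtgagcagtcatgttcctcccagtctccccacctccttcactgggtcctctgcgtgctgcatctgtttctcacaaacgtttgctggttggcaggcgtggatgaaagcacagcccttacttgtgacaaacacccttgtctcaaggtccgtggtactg

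The promoter holds 42 CpG dinucleotides in 250 bases, the most of the 12 RefSeq promoters of the member genes, where the median of all promoters in the RefSeq table was 6. In the intronic region none of the 7 motifs was matched, so it has no capitals.

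*Ghr* (ENSMUSG00000055737, chr15:3317760-3583492, minus strand) encodes the growth hormone receptor, a cytokine receptor without kinase activity of its own. It had 45 regions, with 9745 WT and 5704 TCKO reads, or 9378 after scaling. The ratio of -0.06 (-0.10 to -0.01) lay at the 41.2nd percentile of all loci, and without its strongest region it was 0.02. This small sum covered regions that differed in both directions: the interval was wholly below 0 at 15 and wholly above 0 at 10. The shares over all regions were 18.9% and 29.5%. Of its 45 regions, 4 were lower and 5 higher by at least 2-fold, where 4.51% and 12.3% of all regions were, and they include the lowest and the highest ratio of the member regions.

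Scaled counts at the main start of *Ghr* were lower in TCKO. The region there, chr15:3582978-3583687, held 1508 WT and 640 TCKO reads, or 1052 after scaling, a ratio of -0.52 (-0.65 to -0.39). The fold over local background was nevertheless alike, 6.00 in WT and 6.23 in TCKO. A neighbouring promoter region, chr15:3581855-3582746, held 793 and 434 reads with a ratio of -0.15 (-0.32 to 0.02). Together they gave -0.38 (-0.49 to -0.28) within 2 kb of a start, the lowest value of the 10 genes for that window.

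Deep inside *Ghr*, 194 kb from the start, the intronic region chr15:3388562-3389771 held 909 WT and 715 TCKO reads, a ratio of 0.37 (0.23 to 0.51). The region with the strongest summit of all members, chr15:3544050-3544749, stood 18.3-fold over background in WT and 14.6-fold in TCKO. It held 649 and 436 reads with a ratio of 0.14 (-0.03 to 0.32). The intronic chr15:3344543-3345105 held 326 and 100 reads, a ratio of -0.98 (-1.31 to -0.67), just short of the cutoff. Close to it, at 241 kb against 239 kb from the start, chr15:3342599-3342863 held 50 WT and 121 TCKO reads, or 199 after scaling, a ratio of 1.97 (1.52 to 2.47). Neighbouring regions of *Ghr* thus differed in opposite directions.

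The largest difference downward among all members was at the intronic chr15:3413252-3413381, with 51 WT and 10 TCKO reads and a ratio of -1.58 (-2.59 to -0.67). The largest upward was at the intergenic chr15:3605482-3605618, with 12 and 34 reads and a ratio of 2.13 (1.29 to 3.15). With so few reads their intervals are wide. The intronic chr15:3368994-3369305, called in both genotypes, held 103 and 136 reads with a ratio of 1.11 (0.75 to 1.49). The promoters of both RefSeq starts (GRCm38.p6, along the gene, minus strand, CpG in capitals) and the *Ghr* regions with the largest fall and rise among those with at least 50 reads in one genotype (GRCm38, plus strand, motif matches in capitals) are shown, since the regions named here differ in opposite directions.

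Ghr promoter of the main start, chr15:3583353-3583602, minus strand: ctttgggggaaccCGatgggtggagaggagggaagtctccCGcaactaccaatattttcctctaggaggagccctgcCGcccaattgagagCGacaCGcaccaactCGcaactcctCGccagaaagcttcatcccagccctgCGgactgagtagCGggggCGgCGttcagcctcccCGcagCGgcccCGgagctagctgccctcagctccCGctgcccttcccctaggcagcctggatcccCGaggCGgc
Ghr promoter of the second start, chr15:3581843-3582092, minus strand: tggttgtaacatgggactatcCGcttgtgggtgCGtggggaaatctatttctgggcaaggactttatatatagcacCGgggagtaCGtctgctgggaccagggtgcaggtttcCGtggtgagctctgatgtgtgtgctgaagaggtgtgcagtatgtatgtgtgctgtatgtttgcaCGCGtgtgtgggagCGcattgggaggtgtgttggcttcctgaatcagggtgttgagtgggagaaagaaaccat
Ghr intronic region lower in TCKO, chr15:3413252-3413381: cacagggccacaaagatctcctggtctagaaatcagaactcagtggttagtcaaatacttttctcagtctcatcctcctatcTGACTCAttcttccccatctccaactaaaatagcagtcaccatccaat
Ghr intronic region higher in TCKO, chr15:3342599-3342863: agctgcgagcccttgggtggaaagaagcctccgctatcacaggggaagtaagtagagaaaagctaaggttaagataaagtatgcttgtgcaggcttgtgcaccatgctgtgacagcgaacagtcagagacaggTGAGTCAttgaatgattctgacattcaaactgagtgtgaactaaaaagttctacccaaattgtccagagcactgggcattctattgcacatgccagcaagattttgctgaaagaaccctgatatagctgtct

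The main promoter holds 17 CpG dinucleotides and the second 8. Both intronic sequences hold 1 AP-1 match, on the plus strand in the lower and on the minus strand in the higher region, so that this match is found in regions of either direction.

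*Irs1* (ENSMUSG00000055980, chr1:82233101-82291416, minus strand) encodes the adaptor that links the IGF-I and insulin receptors to PI3K. Its 15 regions summed to 6871 WT and 3587 TCKO reads, a ratio of -0.22 (-0.28 to -0.16) at the 9.08th percentile of all loci. The promoter region chr1:82290647-82291798 was the strongest member region of all and carried 45.0% of the reads of the locus. It held 3111 WT and 1597 TCKO reads, or 2626 after scaling, a ratio of -0.24 (-0.33 to -0.16). Its fold over local background was 4.63 in WT and 4.97 in TCKO. The intronic chr1:82244932-82245395 held 326 and 103 reads, a ratio of -0.94 (-1.26 to -0.63), and its fold over background was 8.03 in WT and 3.82 in TCKO. Both regions past the cutoff at *Irs1* were higher and had at most 40 TCKO reads.

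The binding protein genes had locus ratios between -0.21 and -0.03, all below 0 under the scaling to the total count. *Igfbp5* had the lowest and *Igfbp3* the highest. Together they held 5 higher regions and 1 lower region past the 2-fold cutoff. Their windows held 11 to 21 regions each, and over all regions 12.3% were higher and 4.51% lower by as much. Except for *Igfbp3* and *Igfbp7*, the intervals of the sums were wholly below 0.

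*Igfbp2* (ENSMUSG00000039323, chr1:72824503-72852474, plus strand) and *Igfbp5* (ENSMUSG00000026185, chr1:72857932-72874884, minus strand) lie next to each other and end towards each other, so their windows overlap. IGFBP5 is among the binding proteins stored in bone matrix. *Igfbp2* had 19 regions with 4561 WT and 2542 TCKO reads, a ratio of -0.13 (-0.20 to -0.06). *Igfbp5* had 15 regions with 4451 WT and 2348 TCKO reads, a ratio of -0.21 (-0.28 to -0.13), and 13 of its regions were below 0. Shared regions enter both sums, so these values are not independent. The strongest region of both windows, chr1:72839151-72840142 in an intron of *Igfbp2*, held 1322 and 730 reads with a ratio of -0.14 (-0.27 to -0.01) and matched both the AP-1 and the Runt motif in its central 200 bases.

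The promoter regions of these genes held fewer reads. The main promoter region of *Igfbp2*, chr1:72824462-72825068, held 247 WT and 147 TCKO reads with a ratio of -0.03 (-0.33 to 0.26). A weaker one just before it, chr1:72823860-72824034, held 83 and 28 reads with a ratio of -0.84 (-1.46 to -0.24). The promoter region of *Igfbp5*, chr1:72874893-72875151, held 189 and 103 reads with a ratio of -0.16 (-0.50 to 0.19). Within 2 kb of its start *Igfbp5* reached 0.13 (-0.06 to 0.33), the opposite sign to its whole window. This window includes an exonic region with 242 and 189 reads, chr1:72873643-72874014, with a ratio of 0.36 (0.09 to 0.63). At *Igfbp2* the region past the cutoff, intergenic and higher, held 22 and 44 reads.

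*Igfbp3* (ENSMUSG00000020427, chr11:7206086-7213923, minus strand) encodes the main IGF carrier of the blood. Its 15 regions summed to 4568 WT and 2724 TCKO reads, a ratio of -0.03 (-0.10 to 0.04), whose interval includes 0. The strongest region lay 24.0 kb before its start (chr11:7237612-7238319) with 1775 and 1020 reads and a ratio of -0.08 (-0.19 to 0.03). The promoter region chr11:7213511-7213854 held 264 and 127 reads, a ratio of -0.34 (-0.64 to -0.03). An intergenic region called only in TCKO, chr11:7221977-7222090, held 18 and 45 reads and had a ratio of 1.98 (1.26 to 2.82), wholly past the cutoff.

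*Igfbp4* (ENSMUSG00000017493, chr11:99041244-99054392, plus strand) encodes a binding protein known mainly as an inhibitor of IGF action, which the protease PAPPA cleaves. Its 11 regions summed to 4769 WT and 2568 TCKO reads, a ratio of -0.18 (-0.24 to -0.11). That value came from regions outside the gene: the gene with the 2 kb before its start gave 0.03, and the region with most reads, 1269 and 603, was the promoter of the neighbouring *Top2a* (chr11:99023682-99025026) with a ratio of -0.36 (-0.50 to -0.22). At the start of *Igfbp4*, chr11:99040979-99041581 held 417 and 258 reads with a ratio of 0.02 (-0.20 to 0.25). At an internal start, chr11:99047123-99048064 held 898 and 536 reads with a ratio of -0.03 (-0.18 to 0.13). The intergenic chr11:99055550-99055735 was the lower region past the cutoff, with 46 and 13 reads and a ratio of -1.07 (-1.98 to -0.23).

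*Igfbp6* (ENSMUSG00000023046, chr15:102144362-102149511, plus strand) encodes a binding protein that prefers IGF-II. Its 11 regions summed to 5739 WT and 3255 TCKO reads, a ratio of -0.10 (-0.16 to -0.04). Without the promoter regions of the neighbours *Spryd3* and *Soat2* the ratio was 0.00018, in effect 0. The region with most reads was the *Spryd3* promoter (chr15:102135802-102136835), with 1654 and 938 reads and a ratio of -0.10 (-0.22 to 0.01). No region had its midpoint within 1 kb of the start of *Igfbp6*, and just before it, chr15:102143018-102143575 held 649 and 269 reads, a ratio of -0.55 (-0.76 to -0.35). Inside the gene, chr15:102145290-102145890 held 679 and 404 reads, a ratio of -0.03 (-0.21 to 0.15). The intergenic chr15:102138248-102138404, called only in TCKO, held 41 and 83 reads with a ratio of 1.71 (1.20 to 2.27), wholly past the cutoff.

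*Igfbp7* (ENSMUSG00000036256, chr5:77349240-77408041, minus strand) encodes a related secreted protein that binds IGFs weakly. Its 21 regions summed to 6194 WT and 3628 TCKO reads, a ratio of -0.05 (-0.11 to 0.0047), whose interval includes 0. The strongest region, the intronic chr5:77367422-77368319, held 1075 and 622 reads with a ratio of -0.07 (-0.21 to 0.07). The promoter region chr5:77407248-77408279 held 1038 and 528 reads, a ratio of -0.26 (-0.41 to -0.11). Of the 2 higher regions, the intergenic chr5:77417917-77418317 had more reads, 85 and 119, a ratio of 1.19 (0.80 to 1.60), and was called in both genotypes.

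Taking the reads within 2 kb of a start alone, 7 of the 10 genes had a ratio below 0. The values were -0.38 for *Ghr*, -0.36 for *Igf1r*, -0.29 for *Igfbp7*, -0.27 for *Igfbp3*, -0.26 for *Igfbp6* and -0.23 for *Irs1*, each with an interval wholly below 0. *Igfbp2* with -0.03, *Igfbp4* with 0.03 and *Igfbp5* with 0.13 had intervals that include 0. *Igf1*, with 0.28, was the only gene whose interval was wholly above 0. The share of all genes below 0 in this window is not given here. Over the whole table, regions within 1 kb of a start had a median ratio of -0.07 and the others 0.09.

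**Figure D4:**
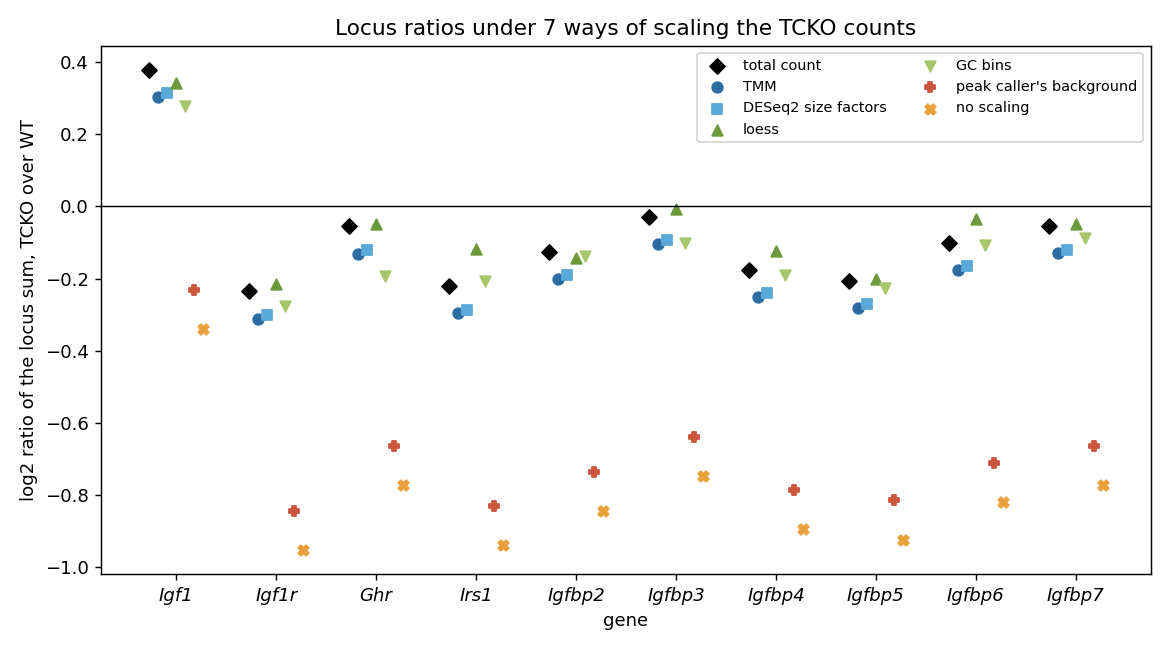
Log2 ratio of the summed counts of each locus, TCKO over WT, under 7 ways of scaling. *Igf1* has the highest ratio of the 10 genes under each of them, above 0 at 0.28 to 0.38 in 5 and below 0 at -0.23 and -0.34 in the other two, and the other 9 genes are below 0 throughout. Single factors shift all loci alike, so only loess and GC bins could have changed the order of the genes.

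The peak lists, made from the same reads and so no independent check, gave 222 WT intervals with 317 summits and 162 TCKO intervals with 212 summits at the members. Of the WT intervals 61.7% (55.2% to 67.9%) were overlapped by a TCKO interval, and of the TCKO intervals 88.3% (82.4% to 92.4%) by a WT interval. The same shares over all intervals of the lists are not given here, so these values cannot be read as particular to the members. Of the 240 regions, 136 held a summit in both lists (56.7%). A summit in WT only was found at 85 regions (35.4%), as at 33.0% of all regions, and in TCKO only at 19 (7.92%), as at 10.2% of all regions. The WT library had more reads, and the part of depth in these counts was not tested. All 6 regions at least 2-fold lower had a summit only in WT, and of the 16 higher regions 12 had one only in TCKO and 4 in both. The same shares over all lower and higher regions are not given here. Where only WT had a summit, the median ratio was -0.29 for the members and -0.28 for all such regions, so most of these regions were short of the cutoff.

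*Igf1r*, with 72 of the 240 regions, had 34 of the 85 where WT alone had a summit and 2 of the 19 with one only in TCKO. *Igf1* had 11 and 4 among its 28 regions, *Ghr* 16 and 4 among 45, and *Irs1* 5 and 3 among 15. The shares over all regions were 33.0% and 10.2%. Over the intervals of a gene, the median fold over local background was 3.60 in WT and 4.43 in TCKO at *Igf1r*. At *Igf1* it was 3.43 and 3.72, and at *Ghr* it was 5.08 and 4.47. These medians do not compare the same peaks. They cover 70 WT and 39 TCKO intervals at *Igf1r*, 24 and 18 at *Igf1*, and 41 and 31 at *Ghr*. The highest fold at *Igf1r* was 11.9 in WT and 10.2 in TCKO.

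In base composition the member regions were close to the whole table, with a median GC content of 48.8% against 48.5%. Their ratio of observed to expected CpG was higher, with a median of 0.245 against 0.189. The 7 consensus motifs searched on both strands in the central 200 bases were AP-1 (TGACTCA), CRE (TGACGTCA), Runt (TGTGGT), TEAD (GGAATG), STAT (TTCNNNGAA), FOXO (GTAAACA) and homeobox (TAATTA). No motif contains another in full.

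Runt, the motif of the RUNX2 family that directs osteoblast differentiation, was matched in 61 member regions (25.4%), against 22.2% of all regions. AP-1 was matched in 38 (15.8%), against 18.6% of all regions. Member regions with an AP-1 match had a median ratio of 0.14 and those without it -0.08, where all regions had 0.44 and -0.0026. An AP-1 match thus went with higher ratios among the members too, with a smaller gap. Of the 16 higher regions 4 held an AP-1 match, and of the 6 lower ones 1 did. The window of 200 bases reaches past regions narrower than that, and within the regions themselves 3 higher ones and 1 lower one held a match. TEAD was matched in 40 regions (16.7%, all 16.3%), STAT in 16 (6.67%, all 6.50%), FOXO in 7 (2.92%, all 2.7%), homeobox in 7 (2.92%, all 2.47%) and CRE in 2 (0.833%, all 0.397%).

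RefSeq held 12 promoters for the 10 genes. In the 250 bases before the start, AP-1 was matched in 1 of them (4.46% of the 32851 promoters of the table), Runt in 1 (14.0%) and TEAD in 2 (12.6%). The other 4 motifs were matched in none of the 12, where their share over all promoters ran from 1.55% for CRE to 7.02% for STAT. The AP-1 match lay in the promoter of the second *Igfbp2* start, the Runt match in the *Igfbp3* promoter and the TEAD matches in those of *Igfbp5* and *Irs1*.

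A list of 39 other genes of the pathway gave ratios on both sides of 0. All had regions in their windows, and 23 sums were below 0 and 16 above, where 54.5% of all loci were below 0. The interval was wholly below 0 at 17, wholly above at 7 and included 0 at 15. Over all loci it was wholly below 0 at 35.7% and wholly above at 28.0%. The median locus ratio of the list was -0.04, within a range of -0.34 to 0.25. Over their 838 distinct regions, 40 (4.77%, all regions 4.51%) were at least 2-fold lower and 56 (6.68%, all regions 12.3%) at least 2-fold higher. The median ratio of these regions was 0.0015, against 0.06 for all regions. The list is not wholly apart from the members, since the window of *Igfbp1* overlaps that of *Igfbp3* and shares regions with it.

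The lowest sums of the list were those of *Nr3c1*, the glucocorticoid receptor, at -0.34 (-0.40 to -0.27), *Igf2r*, which clears IGF-II, at -0.30 (-0.34 to -0.26), and *Grb10*, an adaptor that dampens the signal of the IGF-I and insulin receptors, at -0.30 (-0.35 to -0.25). The highest were those of *Igfbpl1*, an IGF binding protein-like gene, at 0.25 (0.14 to 0.36), *Pappa*, the protease that cleaves IGFBP4, at 0.19 (0.15 to 0.24), and the kinase gene *Mtor* at 0.15 (0.10 to 0.21). The sum of *Igf1* was above that of each of these 39 genes. The second ligand gene, *Igf2*, had 2191 WT and 1357 TCKO reads with a ratio of 0.03 (-0.07 to 0.12), and the insulin receptor gene *Insr* had 5359 and 3526 reads with a ratio of 0.11 (0.05 to 0.17). The transducers of growth hormone *Jak2*, *Stat5a* and *Stat5b* had ratios of -0.02, 0.05 and 0.01, each with an interval that includes 0. The windows of *Stat5a* and *Stat5b* overlap, so their sums are not independent. Under the peak caller's background all 39 sums were below 0.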

How the data were processed

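The authors aligned the reads of both genotypes end to end with STAR 2.7.0e, kept uniquely mapping reads, merged replicates and called peaks with MACS2 (submitters' processing notes and the study's methods; treatment of duplicates is not given in the sources used here). They deposited raw read counts per region, with 1 merged column per genotype, and 2 peak lists with a fold enrichment (the ratio of the pileup to its local background) and the −log10 of the p-value and q-value of each summit. No column of sample values was left aside.

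The planned edgeR test could not be run on merged columns, so values are described beside those of all regions. Members, gene lists, motifs and alternatives were chosen with earlier results of these data known. Named regions were, in each window, the one with most reads, the promoter region with most reads, and the largest fall and rise past 2-fold with at least 50 reads in one genotype. All genes of the 10 were named, and of the pathway list the 3 lowest and 3 highest sums with at least 500 reads. One region that this rule names is not reported here. Regions and genes beyond it were added after their values were seen. Promoters lay within 1 kb of a start. Coordinates are GRCm38, counted from 1.

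Alternative scalings were TMM (edgeR 4.0.16), DESeq2 1.42.0 size factors (R 4.3.3), none, a loess fit (statsmodels 0.14.6, span 0.3), the median in 20 bins of GC content, and the background solved from the deposited fold and p-value. Python 3.11.15, numpy 2.4.6, pandas 2.3.3, scipy 1.17.1 and matplotlib 3.10.9 were used. The ratio and interval steps were tested on simulated data, and the background step was not part of that test.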

Additional observations from a re-analysis of the deposited data

How the results depend on the processing

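With 1 merged column per genotype, leaving out replicates and the tests of edgeR and DESeq2 could not be run. No paired analysis was possible because WT and TCKO each have a single merged column. Depth limits weak regions: the 22 regions past 2-fold had at most 244 reads over both genotypes.

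Against 6 lower and 16 higher regions, TMM and DESeq2 size factors gave 10 lower, loess 12, GC bins 13, the peak caller's background 56 and no scaling 78. The peak caller's background gave 6 higher and no scaling 4. A fold of 1.5 gave 35 lower and 34 higher, a fold of 3 gave 0 and 6, and intervals wholly past the cutoff 0 and 4. With 10 counts added 2 were lower. Regions of the gene and 2 kb before it gave 10 higher, and regions within 2 kb of a start 0 lower and 0 higher. The median ratio of -0.07 was -0.14 with TMM, -0.13 with DESeq2 size factors, loess and GC bins, -0.67 with the peak caller's background and -0.77 without scaling. The cause was not tested.

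Among the locus ratios, *Igf1* turned to -0.23 with the peak caller's background and to -0.34 without scaling. *Igfbp4* turned to 0.026 both in the gene with 2 kb before it and within 2 kb of a start, where *Igfbp5* turned to 0.13. *Igfbp6* turned to 0.00018 without promoters of other genes. Without its strongest region, an alternative added after the data were seen, *Ghr* turned to 0.015 and *Igfbp3* to 0.0044. Between 7 and 10 of the 10 loci were below 0 under every alternative.

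At a −log10 q of at least 5 there were 133 WT and 93 TCKO peaks, at 10 there were 82 and 59, and the TCKO share overlapped was 93.5% and 93.2%. With at least 50% of the peak covered, the WT share was 51.8%. The shares over all peaks are not given here. All 39 pathway sums were below 0 with the peak caller's background.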
